A study of Homo sapiens with 6 samples.

Results

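Upstream and feedback genes of the pathway that leads from interleukin-6 to the transcription factor STAT3 were examined as 10 named genes. They were chosen by symbol for their role: the feedback inhibitors SOCS2, SOCS3, SOCS5 and CISH, the Janus kinases JAK1, JAK2 and TYK2, and the receptor chains IL6ST, OSMR and IL6R. All 10 were found among the 27451 gene rows of the deposited table, each in a single row. Every library came from MDA-MB-231, a long-established line of human breast cancer cells. The H182 group (3 libraries) had been treated for 2 h with 2 µM of H182, which the series title places among azetidine-based STAT3 inhibitors, and the DMSO group (3 libraries) had been given the vehicle for the same time. Values were TPM, a transcript abundance in which reads are divided by transcript length and each library is scaled to 1000000.

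Cytokines of the interleukin-6 family bind receptor complexes that contain gp130, the product of IL6ST. Binding activates Janus kinases held on the receptor tails, the kinases phosphorylate STAT3, and STAT3 then enters the nucleus. SOCS proteins carry a phosphotyrosine-binding SH2 domain and a SOCS box that recruits a ubiquitin ligase. Several SOCS genes are themselves STAT targets, so that the pathway induces its own brakes.

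Marker genes were examined against the labelled line, which so few genes cannot identify. The mesenchymal markers VIM, CD44 and FN1 summed to 4552 to 4825 TPM in H182 libraries and 5292 to 5394 TPM in DMSO libraries. Most of that sum was VIM. In TPM, VIM and CD44 were called lower with H182 (limma adjusted p = 0.00721 and 0.00137), and only CD44 with median-of-ratios scaling. FN1 averaged 155.6 TPM with H182 and 155.4 TPM with DMSO and did not pass. The hormone receptor genes ESR1 and PGR and the epithelial cadherin gene CDH1 stayed at or below 0.28 TPM in all 6. Of the other line markers set as low or absent, ERBB2 was at 24.9 to 29.4 TPM and EPCAM at 12.5 to 16.2 TPM. Among haematopoietic markers, the T cell gene CD3E was at or below 0.07 TPM and CD68 was at 138 to 157 TPM. Libraries of the same group correlated across genes at r = 0.9928 to 0.9942, and libraries of different groups at 0.9787 to 0.9806, where genes are not independent replicates. No library stood apart within its group. TPM keeps no record of read numbers, so the depth is unknown.

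SOCS3 mRNA was higher and SOCS2 and SOCS5 mRNA were lower after H182, while no call was made for the kinases or receptor chains in TPM. SOCS3 rose 1.52-fold (ratio of mean TPM). SOCS2 fell to 0.747 of its DMSO level and SOCS5 to 0.805. Of the 10 genes, 9 averaged 1 TPM or more over the 6 libraries and were tested with limma among 12294 genes, with an adjusted p threshold of 0.05. Of these 9, 1 gene rose (11.1%) and 2 fell (22.2%). Of all tested genes 24.0% were called, 5.30% higher and 18.7% lower. With so few genes those shares lie near the background, and nothing is read from them about the group. The median change of the 9 genes was -0.07 on the log2 scale, beside -0.09 for all tested genes. That median shift of all genes was 0.00 after median-of-ratios scaling, which makes the typical gene constant. With that scaling 2 of the 9 genes were called higher, SOCS3 and TYK2, against 7.88% of all genes, and SOCS2 alone was called lower, against 6.78%. In TPM 78.0% of all calls were lower, and with that scaling 46.2%.

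**Figure D1:**
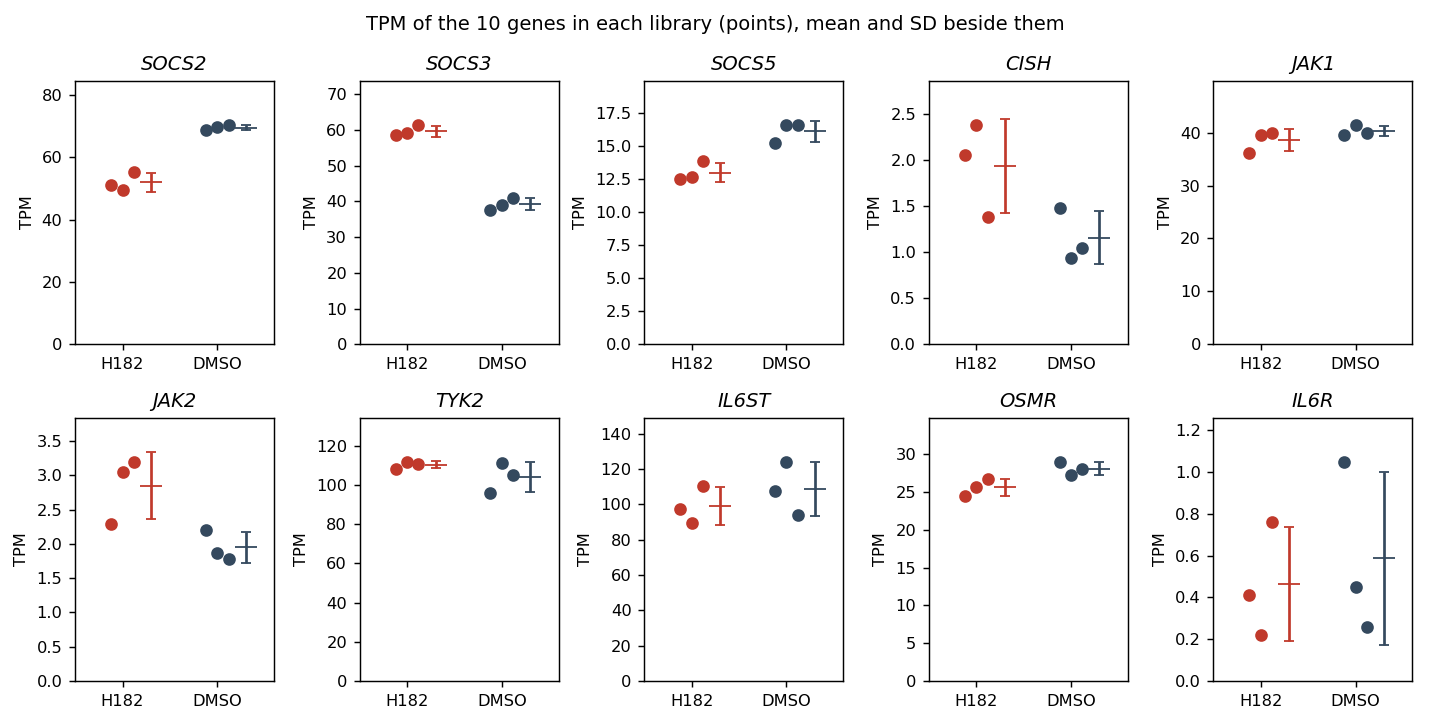
TPM (vertical axes, linear, from 0) of each of the 10 genes in the 3 H182 libraries and the 3 DMSO libraries, 1 point per library, with the group mean and SD beside the points. SOCS3 is higher and SOCS2 and SOCS5 are lower in every H182 library, while IL6ST and IL6R overlap between the groups.

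SOCS3 encodes a feedback inhibitor that binds both gp130 and the kinases JAK1, JAK2 and TYK2. The gene lies on chromosome 17, 78356778 to 78360077, on the minus strand (GRCh38, GENCODE 29), with 2 exons. It had 58.5, 59.1 and 61.5 TPM in the H182 libraries, against 37.6, 39.2 and 40.9 TPM in the DMSO libraries. The lowest H182 library was thus well above the highest DMSO library. Its log2 change was 0.59 (SE 0.054, 95% interval 0.47 to 0.72, limma adjusted p = 6.03e-05). That change stood at the percentile 97.4 of all tested genes. Because these are bulk samples, a moderate change in all cells and a larger change in some of them cannot be told apart.

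SOCS2 encodes a family member best known as a brake on growth hormone receptor signalling. The gene lies on chromosome 12, 93569814 to 93583487, on the plus strand, and its principal transcript has 3 exons. SOCS2 had 51.0, 49.6 and 55.2 TPM in H182 libraries, against 68.7, 69.6 and 70.4 TPM in DMSO libraries. Its groups did not overlap either, in the opposite direction to SOCS3. Its log2 change was -0.42 (SE 0.054, 95% interval -0.54 to -0.29, limma adjusted p = 0.000646), and -0.31 with median-of-ratios scaling, which also passed.

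SOCS5, a family member with a long N-terminal region, lies on chromosome 2, 46698952 to 46780245, on the plus strand. It had 12.5, 12.7 and 13.9 TPM in H182 libraries, against 15.2, 16.6 and 16.6 TPM in DMSO libraries. The groups were separate but the gap between them was small. The log2 change was -0.29 (SE 0.081, limma adjusted p = 0.0284). The call was not kept after median-of-ratios scaling (-0.20, adjusted p = 0.115), after quantile normalization, without the filter on low values, or when H182 replicate 1, H182 replicate 2, DMSO replicate 2 or DMSO replicate 3 was left out.

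SOCS3 and SOCS2 changed places within the family. SOCS3 mRNA was above SOCS2 mRNA in 3 of 3 H182 libraries, and below it in 3 of 3 DMSO libraries. The ratio of SOCS3 to SOCS2 TPM, which does not depend on how a library is scaled, was 1.15, 1.19 and 1.11 in H182 libraries, against 0.547, 0.562 and 0.581 in DMSO libraries. The means were 1.15 ± 0.0392 with H182 and 0.564 ± 0.0170 with DMSO (SD, n = 3 each). The exact two-sided permutation test gave p = 0.1, the smallest value that 3 against 3 libraries allow. This pair of genes was chosen after seeing the data. SOCS3 was already separate upward and SOCS2 downward, so the ratio had to separate and the p-value adds no support. The summed TPM of all 8 SOCS family genes was 169 ± 10.2 in H182 libraries and 162 ± 5.10 in DMSO libraries (SD, n = 3 each, exact permutation p = 0.6), a difference smaller than the spread between libraries. Of that sum, SOCS3 made up 35.4 ± 1.25% with H182 and 24.1 ± 0.377% with DMSO, and SOCS2 made up 30.8 ± 0.285% with H182 and 42.9 ± 0.842% with DMSO. SOCS5 made up 7.72 ± 0.109% with H182 and 9.94 ± 0.211% with DMSO.

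**Figure D2:**
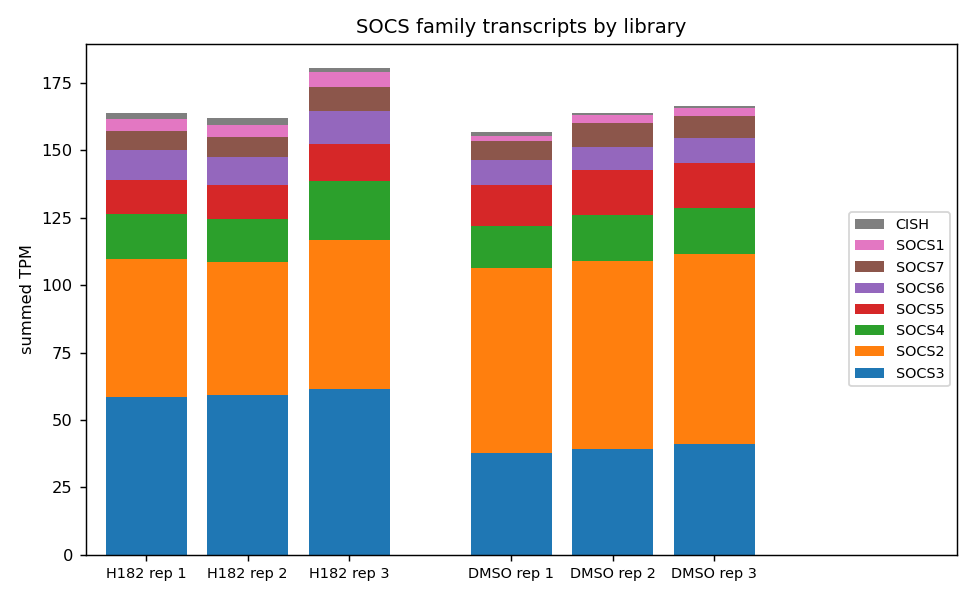
Summed TPM (vertical axis, linear, from 0) of the 8 SOCS family genes stacked in each H182 library (left) and each DMSO library (right). The bars are of similar height in both groups, 162 to 180 TPM with H182 and 157 to 167 TPM with DMSO, while the SOCS3 segment is wider and the SOCS2 segment narrower with H182.

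The family members outside the 10 genes were SOCS1, SOCS4, SOCS6 and SOCS7, of which 2 rose and none fell under either scaling. SOCS1, a direct inhibitor of Janus kinases best known for restraining interferon signalling, had 4.46, 4.52 and 5.65 TPM in H182 libraries, against 1.88, 2.86 and 2.61 TPM in DMSO libraries. Its groups were separate, and its log2 change was 0.77 (limma adjusted p = 0.00619). SOCS6 averaged 11.3 ± 0.935 TPM with H182 and 8.91 ± 0.287 TPM with DMSO (SD, n = 3 each; log2 change 0.31, limma adjusted p = 0.0356). SOCS4 (0.10) and SOCS7 (-0.08) did not pass. The SOCS box acts with the scaffold CUL5, the RING protein RNF7 and the elongins ELOB and ELOC. Of these 4 genes CUL5 fell in TPM (log2 change -0.27, limma adjusted p = 0.0361), but did not pass after median-of-ratios scaling (-0.17, adjusted p = 0.160), and the other 3 did not pass in TPM.

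CISH, on chromosome 3, 50606490 to 50611831, minus strand, encodes the founding member of the family, a classical STAT5 target that dampens cytokine receptor signalling. It is shown by its upstream sequence because this holds repeats of the palindrome bound by STAT proteins. The stretch printed is chr3:50611832-50612024 (RefSeq, GRCh38.p14, minus strand, 5′ to 3′), which ends at the gene's 5′ end in GENCODE 29, with each match to TTCNNNGAA in capitals.
CISH upstream: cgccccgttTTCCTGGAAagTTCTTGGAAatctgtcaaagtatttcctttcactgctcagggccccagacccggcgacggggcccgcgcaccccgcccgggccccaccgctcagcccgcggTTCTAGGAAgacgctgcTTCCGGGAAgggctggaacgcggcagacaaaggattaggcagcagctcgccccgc
The 4 matches start 241, 230, 129 and 112 bases before the RefSeq start site. That site lies 57 bases past the gene's 5′ end in GENCODE 29, where the printed stretch ends. TTCNNNGAA reads the same on both strands. Of 35116 RefSeq promoter windows, each the 250 bases before a start, 6.57% held at least 1 match and 5 windows held at least 4. A match is a description of letters and shows no binding.

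CISH was expressed at a low level. It had 2.05, 2.38 and 1.38 TPM in H182 libraries, against 1.48, 0.94 and 1.04 TPM in DMSO libraries. The highest DMSO library lay above the lowest H182 library, so the groups overlapped. The ratio of mean TPM was 1.68, and the log2 change of 0.44 on the log2(TPM + 1) scale, which understates changes of such low genes, had a 95% interval of 0.03 to 0.85. It did not pass (limma adjusted p = 0.113), and no alternative brought it past the threshold.

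Promoter windows were given in RefSeq for 8 of the 10 genes, 14 windows in all, and SOCS2 and SOCS5 had no entry. TTCNNNGAA occurred in the CISH window alone among these 14. The SOCS3 windows belonged to start sites 848 bases before and 410 bases after the gene's 5′ end in GENCODE 29, so they do not cover the bases just before that end. Half-sites of the heat shock element in the tail-to-tail order, TTCNNGAA, occurred once each in a window of SOCS3, JAK1 and IL6R, where 6.62% of all windows held at least 1. The order GAANNTTC occurred once, in the CISH window, where it overlaps the first and second TTCNNNGAA matches. It was held by 5.78% of all windows. The AP-1 site TGANTCA, held by 6.57% of all windows, was in none of the 14. All of these patterns read the same on both strands.

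The Janus kinases differed in level by more than 1 order of magnitude, and none changed by a call in TPM. TYK2, which serves interferon and interleukin-6 family receptors, had 108, 112 and 111 TPM in H182 libraries, against 95.9, 111 and 105 TPM in DMSO libraries. The groups overlapped, and the log2 change was 0.09 (95% interval -0.04 to 0.21, limma adjusted p = 0.301). With median-of-ratios scaling the groups separated and TYK2 passed as higher (0.19, adjusted p = 0.0469), so its call depends on the scaling. JAK1, the kinase most needed for gp130 signalling, had 36.2, 39.55 and 39.9 TPM in H182 libraries, against 39.65, 41.5 and 40.0 TPM in DMSO libraries. The groups overlapped, with a log2 change of -0.07 (95% interval -0.20 to 0.07, limma adjusted p = 0.456) that turned to 0.035 with median-of-ratios scaling.

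JAK2, which carries signals of the growth hormone, erythropoietin and interleukin-6 family receptors, was far below TYK2 and JAK1. It had 2.29, 3.05 and 3.20 TPM in H182 libraries, against 2.20, 1.86 and 1.78 TPM in DMSO libraries. The groups did not overlap, but H182 replicate 1 lay just above DMSO replicate 1. The ratio of mean TPM was 1.46 and the log2 change 0.38 (95% interval 0.04 to 0.72), which did not pass (limma adjusted p = 0.0957). JAK3, the kinase of lymphoid cytokine receptors, stayed at or below 0.11 TPM in every library. Of the summed TPM of the 4 kinase genes, TYK2 made up 72.7 ± 0.965% with H182 and 71.0 ± 1.25% with DMSO (SD, n = 3 each), and JAK2 made up 1.87 ± 0.276% with H182 and 1.34 ± 0.225% with DMSO.

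IL6ST, the gene of the shared signalling chain gp130, lies on chromosome 5, 55935095 to 55994993, minus strand. It had 97.5, 89.3 and 110.3 TPM in H182 libraries, against 108, 124 and 93.8 TPM in DMSO libraries. The groups overlapped broadly, and IL6ST varied more between libraries than any other of the 10 genes above 10 TPM, with a coefficient of variation of 10.7% in H182 libraries and 14.02% in DMSO libraries. The log2 change was -0.13 (95% interval -0.36 to 0.10, limma adjusted p = 0.395). OSMR pairs with gp130 in the oncostatin M receptor. It had 24.5, 25.7 and 26.7 TPM in H182 libraries, against 29.04, 27.3 and 28.1 TPM in DMSO libraries. All 3 H182 libraries were lower, yet the log2 change of -0.13 did not pass (95% interval -0.27 to 0.02, limma adjusted p = 0.176), and with median-of-ratios scaling the groups overlapped (-0.03). OSMR-AS1, an antisense gene whose reads could be mixed with those of OSMR if strand was not used in counting, was at 0.31 to 1.12 TPM.

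IL6R encodes the chain that binds interleukin-6 and confers its specificity. It had 0.41, 0.22 and 0.76 TPM in H182 libraries, against 1.05, 0.45 and 0.26 TPM in DMSO libraries. The groups overlapped (exact two-sided permutation p = 0.6), and at a mean of 0.525 TPM over all libraries IL6R was not tested. Without a filter on low values its log2 change was -0.10 (limma adjusted p = 0.812). The receptor for interleukin-6 can also be shed by the proteases ADAM10 and ADAM17, neither of which passed (-0.26, limma adjusted p = 0.0557, and -0.01).

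The TPM ratio of SOCS3 to IL6ST, feedback inhibitor to receptor chain, was 0.600, 0.662 and 0.557 in H182 libraries, against 0.349, 0.315 and 0.436 in DMSO libraries. The groups were separate, with means of 0.607 ± 0.0527 with H182 and 0.367 ± 0.0625 with DMSO (SD, n = 3 each). The exact two-sided permutation p was 0.1, the smallest possible. SOCS3 was already separate upward, and IL6ST varied too little between libraries to undo that. The ratio therefore had to separate, mainly restates SOCS3, and its p-value adds no support. The ratio of OSMR to IL6ST was 0.261 ± 0.0243 with H182 and 0.263 ± 0.0402 with DMSO (SD, n = 3 each, exact permutation p = 1), so their proportion differed by less than the spread between libraries.

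**Figure D3:**
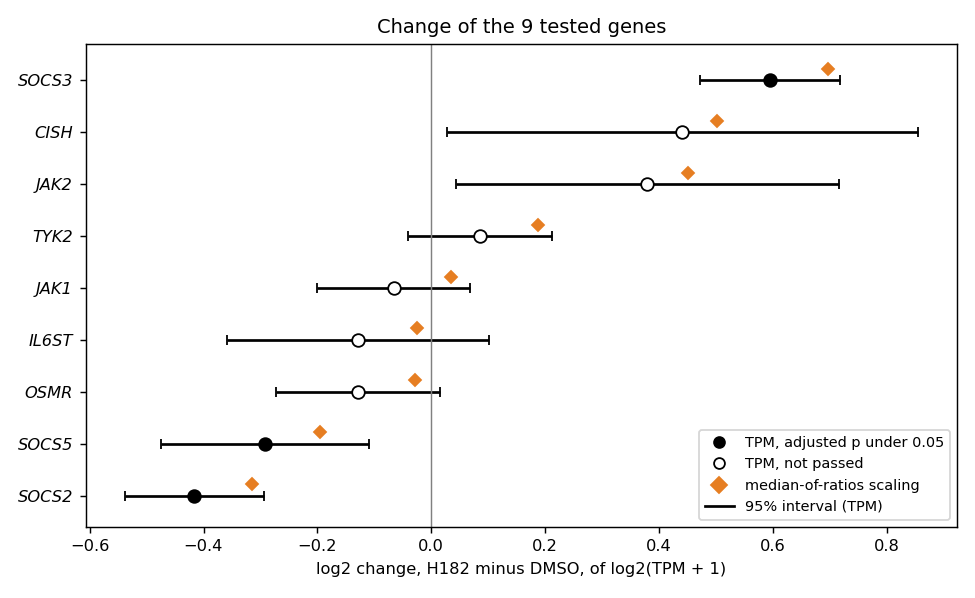
Log2 change, H182 minus DMSO, of log2(TPM + 1) for the 9 tested genes (horizontal axis) with 95% intervals from limma. Filled circles passed at an adjusted p under 0.05, and diamonds give the change with median-of-ratios scaling. SOCS3 at 0.59 and SOCS2 at -0.42 stand at opposite ends, and the diamonds lie to the right of the circles for all 9 genes.

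Ordered by mean level, the genes ran TYK2, IL6ST, SOCS3, SOCS2, JAK1, OSMR, SOCS5, JAK2, CISH and IL6R in H182 libraries. In DMSO libraries the order was IL6ST, TYK2, SOCS2, JAK1, SOCS3, OSMR, SOCS5, JAK2, CISH and IL6R. SOCS3 thus stood above SOCS2 and JAK1 with H182 and below both with DMSO. The ranges of TYK2 and IL6ST overlapped in both groups, as did those of JAK2 and CISH with H182 and those of JAK1 and SOCS3 and of CISH and IL6R with DMSO. The ranges of the other neighbours were separate. Across the 9 tested genes the groups did not overlap in 5 (55.6%), against 41.4% of all tested genes. SOCS3 and JAK2 were higher (8.67% of all tested genes) and SOCS2, SOCS5 and OSMR lower (32.7%). After median-of-ratios scaling TYK2 joined and OSMR left these, against 33.3% of all tested genes.

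The genes also differ in build. The SOCS3 and CISH genes span 3300 and 5342 bases and their principal transcripts have 2 and 3 exons, whereas JAK1 and JAK2 span 133276 and 143794 bases with 25 exons. The 3′ untranslated regions were searched for TTATTTATT on the transcript strand, an AU-rich nonamer known from short-lived mRNAs. It was present in SOCS2, CISH and OSMR, and in 8.65% of 11603 tested genes with such a region. These sites are shown with the nonamer in capitals, and any link between them and the changes in mRNA was not tested.
SOCS2 site: agtccagacaTTATTTATTttatggcttt
CISH site: tatacactatTTATTTATTtattctcctt
OSMR site 1: tattttacttTTATTTATTttttgagatg
OSMR site 2: ttgtcagcatTTATTTATTtatgtacctt
In CISH a second nonamer overlaps the one printed. SOCS3 held none, and 4 copies of the shorter ATTTA in 1640 bases. ATTTA was densest in JAK2, at 4.31 per kb, and absent from the 301 bases of TYK2, against a median of 1.64 per kb over tested genes. The letters of the sites were taken from the GENCODE 29 transcripts.

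Ligands of the gp130 family included the highest log2 changes among the pathway genes examined here, 2.98 for IL6 and 1.78 for IL11. Of 8 ligand genes 6 were tested, 2 rose and 1 fell in TPM. IL6 had 26.7, 28.7 and 24.6 TPM in H182 libraries, against 2.16, 2.81 and 2.59 TPM in DMSO libraries, and IL11 averaged 341 ± 19.01 TPM with H182 and 98.7 ± 5.25 TPM with DMSO (SD, n = 3 each). LIF fell (log2 change -0.49, limma adjusted p = 0.00625). CLCF1 did not pass in TPM (0.23, limma adjusted p = 0.0919) and passed as higher with median-of-ratios scaling. The ligands OSM and IL27, whose receptors share gp130, were at or below 0.19 TPM.

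Of the 6 other receptor chains of the gp130 family, 4 were tested and none passed, among them LIFR (-0.30), IL27RA (-0.20) and IL11RA (-0.19). IL11RA, the specific chain for interleukin-11, was at 3.63 to 3.89 TPM in H182 libraries and 3.85 to 4.88 TPM in DMSO libraries. CNTFR was listed at 0 in every library. Of 34 other cytokine receptor chains that bind Janus kinases, 13 were tested, none rose, and IL13RA1 (-0.25, limma adjusted p = 0.0364) and IL31RA (-0.31, limma adjusted p = 0.0414) fell. IL31RA is the partner of OSMR in the interleukin-31 receptor. Both calls were lost with median-of-ratios scaling.

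Among the STAT genes, STAT2, which acts downstream of interferon receptors, rose and averaged 22.3 ± 0.269 TPM with H182 and 16.3 ± 0.883 TPM with DMSO (SD, n = 3 each; limma adjusted p = 0.00239). It passed with median-of-ratios scaling as well. STAT3 (-0.02), STAT5A (-0.10), STAT5B (-0.15) and STAT6 (-0.13) did not pass. Of 15 other restraints and adapters of Janus kinase signalling, 14 were tested, none rose and 3 fell. These were the phosphatase genes PTPN11 (-0.25, limma adjusted p = 0.00751) and PTPN1 (-0.14, limma adjusted p = 0.0482) and the ubiquitin ligase gene CBL (-0.37, limma adjusted p = 0.0221), and all 3 calls were lost with median-of-ratios scaling. With that scaling the adapter gene SH2B1 passed as higher (0.28, adjusted p = 0.0455), which it did not in TPM (0.18, limma adjusted p = 0.150). Over all 81 pathway genes outside the 10, 53 were tested, and in TPM 5 rose and 8 fell, with a median log2 change of -0.11. Over all tested genes 5.30% were called higher and 18.7% lower, with a median of -0.09. After median-of-ratios scaling 7 of the 53 were called higher and 2 lower, against 7.88% and 6.78% of all tested genes. Nothing is read from these counts about the pathway as a whole.

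**Figure D4:**
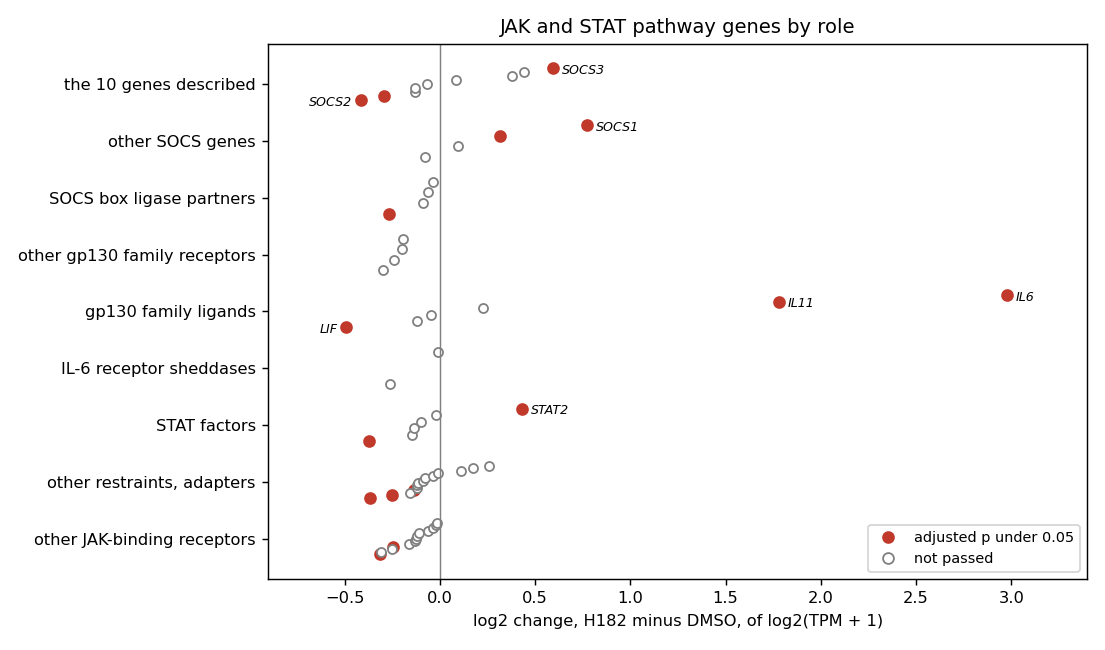
Log2 change, H182 minus DMSO, of log2(TPM + 1) (horizontal axis) for the tested genes of each role (rows), 1 point per gene. Filled points passed at a limma adjusted p under 0.05, and names are printed for those beyond 0.4 in either direction. IL6 and IL11 lie far to the right of all receptor, kinase and SOCS genes.

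The tested genes whose pattern over the 6 libraries was closest to that of SOCS3 were OSER1, TUBB2A and BCORL1. Likeness was measured as the root mean square difference of log2(TPM + 1) after subtracting each gene's DMSO mean, and was 0.0341, 0.0351 and 0.0432 for these genes. Closest to SOCS2 were C12orf65, IRS1, an adapter of the insulin receptor, and IRF2BP2, at 0.0266, 0.0276 and 0.0282. With DMSO means subtracted, this measure largely follows the size of the log2 change, 0.57, 0.63 and 0.58 for the genes closest to SOCS3. Shared regulation was not tested.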

How the data were processed

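RNA was poly-A selected and made into libraries with a stranded kit, per the labels' protocols. The submitters' processing notes name RSEM 1.2.25, STAR 2.5.0 and the genome build GRCh38. Not given in the sources used here are the annotation, trimming and how strand was used in counting. The authors' deposited values are TPM per gene and library, rounded to 2 decimals, so a rise of abundant transcripts lowers the share of all others.

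Of 27567 rows, 92 spike-in rows and 24 second rows of genes shared by X and Y were left out. The contrast of H182 over DMSO was fitted in R 4.3.3 by limma 3.58.1 (empirical Bayes with a mean-variance trend, two-sided) on log2(TPM + 1) for the 12294 genes averaging 1 TPM or more, with Benjamini-Hochberg adjustment over all of them and a threshold of 0.05. The fit was tested on simulated data with independent noise and changes in random directions. Such data do not bear on the choice of scaling. "Rose" and "fell" mark genes past that threshold. Errors are SDs (n = 3) where not marked SE. Nothing says that replicates were separate cultures, and the p-values cover only the spread among these 6 libraries, possibly technical. Coordinates and transcripts are from GENCODE 29 (GRCh38), to which all 10 gene identifiers matched, 8 with the same version; the principal transcript was used. Promoters are from RefSeq (GRCh38.p14).

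Results were recomputed with other scalings (median-of-ratios, quantile), filters, pseudocounts and variance models, with a replicate block, and without each library.

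A few list members are not reported here. The genes and lists were chosen with earlier results of these data known. Named were the 10 genes, the list members past the threshold, and the 3 genes most like each of the 2 members with the lowest p; other list members were named to describe a list after their values were seen. Figures were drawn with matplotlib 3.10.9.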

Additional observations from a re-analysis of the deposited data

How the results depend on the processing

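SOCS3 and SOCS2 passed under all 14 alternatives, with log2 changes of 0.56 to 0.70 and of -0.46 to -0.31. SOCS5 passed under 7 of 14 (-0.34 to -0.20, limma adjusted p = 0.0248 to 0.115). CISH, JAK2, IL6ST and OSMR passed under none, TYK2 under median-of-ratios scaling alone. CISH and JAK2 were tested under 13 of the 14, because both average below 5 TPM. JAK1 changed sign to 0.035 with median-of-ratios scaling and 0.016 with quantile normalization, without passing. The count of the 10 genes called lower was 1 in place of 2 without a filter on low values, with median-of-ratios scaling and with quantile normalization, and 1 to 2 when single libraries were left out; the count called higher was 2 in place of 1 with median-of-ratios scaling. Over the whole table, 2955 genes were called, 2304 of them lower. Median-of-ratios scaling gave 1802 and 833, by construction fewer lower calls, and quantile normalization gave 1261 lower calls (60.2% of calls). Leaving out single libraries gave 1947 to 2758 calls, 1396 to 2205 of them lower, from fewer samples. The cause of the other differences was not tested.

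Same-numbered libraries showed no shared deviation: their deviations correlated at -0.0130, 0.00245 and -0.0359 across genes. Whether they were set up or processed together is not given in the labels. With a replicate block 2684 genes were called, 625 higher and 2059 lower, and 3 of the 10 genes. The SOCS3 to IL6ST difference stayed between 0.212 and 0.275 when single libraries were left out, and that of SOCS3 to SOCS2, an alternative chosen after seeing the data, between 0.567 and 0.606. Both ratios had to separate given the single genes, so these ranges add no support. Depth is unknown, so the precision of CISH, JAK2 and IL6R, all near or below 3 TPM, rests on 3 libraries a group.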
